A study of Mus musculus with 32 samples.

Results

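The transcripts described here are those of protein kinases, phosphatases, small-molecule kinases and their named partners in mouse prefrontal cortex. They were chosen by title alone: a cDNA clone spot was taken where its title contains kinase or phosphatase, does not start with EST or DNA segment, and does not name Cdk2, Wee1, Bub1b, Eif2ak3, Eif2ak4, Dapk3 or Dusp1. Of 4696 clone spots, 124 titles matched, 31 of these were EST or DNA segment titles and 6 named an excluded gene, which left 87 spots for 86 genes. Only Hipk1 has 2 clones among them. A current symbol was found for 80 spots, and the other 7 are called by their title. The rule also takes in proteins that are no kinase or phosphatase, among them Enpp2, titled a pyrophosphatase, and Twf1, an actin-binding protein titled protein tyrosine kinase 9.

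Protein kinases transfer phosphate from ATP to other proteins and phosphatases remove it, so that together they set the activity of receptors, channels, transcription factors and splicing factors. In cortical neurons, calcium and cAMP reach the nucleus through kinases such as the calmodulin-dependent kinases, protein kinase A and the mitogen-activated protein (MAP) kinases. Many of these enzymes are regulated by phosphorylation, binding partners or location, which an RNA measurement does not see.

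The study measured RNA in the prefrontal cortex of mice from lines bred for severe or mild ethanol withdrawal, Withdrawal Seizure-Prone mice (WSP) and Withdrawal Seizure-Resistant mice (WSR), each line kept as 2 independently selected populations named selection replicates 1 and 2. Adult, drug-naive females and males of selected generation 26, from heterogeneous HS/Ibg stock, spent 72 h in chambers with ethanol vapour (EtOH) or with air only, and the cortex was dissected 8 h into withdrawal. EtOH mice first received ethanol by injection, at 1.5 g/kg, or at a higher dose in WSP selection replicate 2 to reach similar blood levels, so ethanol dose and population are not separate in that group. All mice of all groups, air controls included, received pyrazole at 68.1 mg/kg, an inhibitor of alcohol dehydrogenase. The 8 groups are female and male, WSP and WSR, air and EtOH, with 4 arrays each, 2 per selection replicate. Each of the 32 arrays was hybridised with RNA pooled from 2 mice, 64 mice in all. Arrays are named by selection replicate and pool, as in 1-2, and per-array values below are given in the order 1-1, 1-2, 2-1, 2-2. The tissue is bulk, so fewer cells of a type and less RNA per cell cannot be told apart.

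Values are log2 intensities after background correction and quantile normalisation, on which the lowest possible value was about 5.65. Because signals near that floor are compressed, differences of dim spots are understated. On single arrays 51.1% to 88.7% of the clone spots exceeded background. Of the 87 spots, 13 were above background on all 32 arrays, 51 on at least 16 and 36 on fewer than 16. The median of their mean levels was 5.94, against 5.98 over all clone spots. Differences were tested with limma over all 4696 spots, with Benjamini-Hochberg adjustment and a threshold of 0.05, and only the spots of the kinase and phosphatase set are given. The 95% interval around a difference had a median half-width over the 87 spots of 0.124 log2 units for averages of 16 against 16 arrays, 0.176 for 8 against 8 and 0.248 for 4 against 4. Brain markers were present, with the neurofilament-related Ina and the astrocyte enzyme Glul above background on all 32 arrays. The other neuronal marker, Thy1, was above it on 26 arrays and the other astrocyte marker, Fgfr3, on 9. Blood was present too, with 1 of 2 spots of the haemoglobin gene Hba-a1 above background on all 32.

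The members with the strongest signal came from several roles. A level depends on the spotted clone as well as on the transcript, so levels are not set against each other between genes. Pacsin2, an adaptor of endocytosis, had a mean level of 11.13 over the 32 arrays and ran from 10.87 to 11.46. Pnck, a neuronal kinase of the calmodulin-dependent kinase I family, ran from 8.998 to 11.32, and Enpp2, the secreted enzyme autotaxin, from 9.27 to 10.18. Cks1b, a small subunit that binds cyclin-dependent kinases, ran from 8.52 to 9.92, Srpk3, a kinase of splicing factors titled as muscle-specific, from 9.03 to 10.02, and Hunk, a relative of AMP-activated kinase, from 7.55 to 9.40. The spot titled serum/glucocorticoid regulated kinase-like ran from 7.47 to 8.75, the DNA damage checkpoint kinase Atr from 6.91 to 7.97 and the galactose enzyme Galk1 from 6.09 to 7.40. Each of these was above background on every array. The mean level was at most 6.50 for 77 of the 87 spots, so most kinases and phosphatases on this array were measured near the floor.

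**Figure D1:**
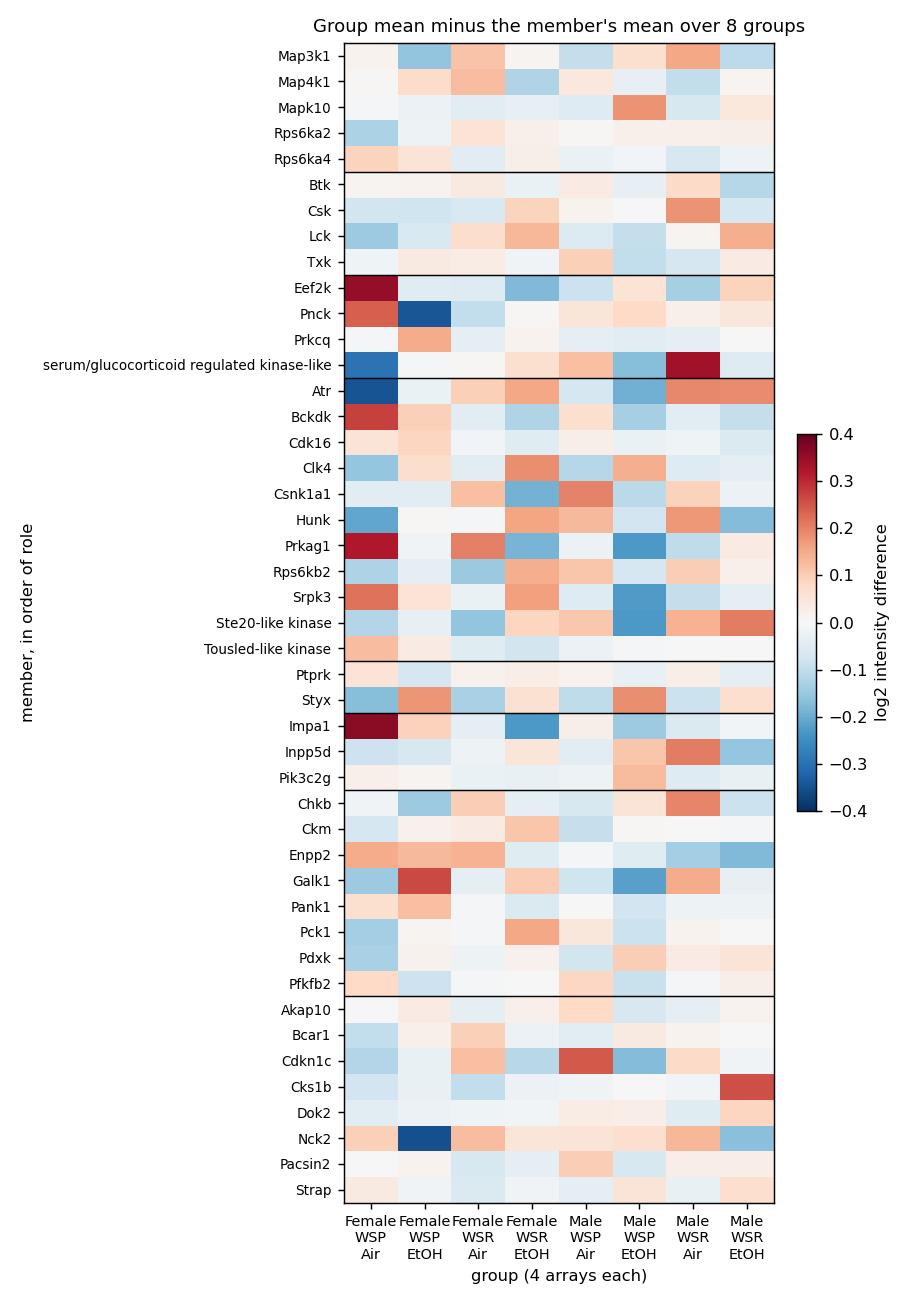
Each row is a named kinase or phosphatase spot and each column a group of 4 arrays. Colour gives the group mean minus the mean of the spot's 8 group means, in log2 intensity, and horizontal lines separate roles. The largest deviation is 0.36, and Female WSP Air holds several of the deepest colours, with Impa1, Eef2k and Prkag1 high and Atr low.

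The comparison of lines asks which transcripts differ between WSP and WSR mice whether or not they had breathed ethanol. Among the 87 spots, Atr alone passed the test. ATR is the kinase that is recruited to single-stranded DNA at damaged or stalled replication forks and starts the checkpoint response. Averaged over sexes and treatments, Atr was lower in WSP than in WSR mice, at 7.51 ± 0.27 against 7.82 ± 0.08 (SD, n = 16 each), a difference of -0.315 (SE 0.07, 95% interval -0.46 to -0.17, limma adjusted p = 0.0231). Of the 16 WSP arrays, 14 lay below the WSR mean. The arrays are the units of this test, not the 2 selected populations of each line. Over all clone spots 30 were called in this comparison, 0.639%, and 1 of the 87 spots was.

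Array by array, Atr was 7.33, 7.43, 7.20 and 7.33 in female WSP air mice and 7.72, 7.72, 7.87 and 7.74 in female WSR air mice. Male WSP air mice had 7.75, 7.20, 7.66 and 7.78 and male WSR air mice 7.82, 7.84, 7.80 and 7.97. In neither sex did the air groups of the 2 lines overlap. Female WSP EtOH arrays read 7.60, 7.86, 7.49 and 7.61, and female WSR EtOH arrays 7.87, 7.78, 7.86 and 7.77. Male WSP EtOH arrays read 7.47, 6.91, 7.87 and 7.63, and male WSR EtOH arrays 7.75, 7.97, 7.86 and 7.84. After EtOH the lines overlapped in both sexes, through WSP arrays 1-2 in females and 2-1 in males. WSR arrays kept within a narrow band from 7.72 to 7.97, while WSP arrays spread from 6.91 to 7.87. In male WSP the lowest value was pool 1-2 in both treatments.

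Split by treatment, the Atr difference between lines was -0.35 in air (SE 0.10, n = 8 each, 8 of 8 WSP arrays below the WSR mean, limma adjusted p = 0.344) and -0.28 in EtOH (SE 0.10, 6 of 8, 0.792). Split further, it was -0.44 in air females (SE 0.14, n = 4 each, adjusted p = 0.217), -0.26 in air males (adjusted p = 1.00), -0.38 in EtOH males (adjusted p = 0.699) and -0.18 in EtOH females (SE 0.14, 3 of 4, 0.784), limma throughout. None of these smaller comparisons passed. The air female difference was -0.06 under median scaling and -0.14 under cyclic loess. Without pool 1-2 of male WSP, the difference was -0.13 in air males and -0.20 in EtOH males. The call therefore rests on the average over all 32 arrays.

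The Atr call depended on the scaling. The difference was -0.32 under median scaling, where it did not pass (limma adjusted p = 0.412), and -0.20 under cyclic loess (0.0633). Within selection replicate 1 alone Atr differed by -0.37 (adjusted p = 0.469) and within selection replicate 2 alone by -0.26 (0.474). With each array left out in turn it stayed between -0.35 and -0.27 and passed every time. Background intensity, which differed between the lines, was 9.83 to 45.0 on WSP arrays (median 24.2) and 12.1 to 24.9 on WSR arrays (median 18.2). Its part in the Atr difference was not tested. Genomic DNA control spots grouped 25 arrays into 9 sets that vary together. Sets as a random block left the Atr difference at -0.31 (limma adjusted p = 0.0203). Of 7 sets that held both lines, each with 1 male WSP array, the WSP value was below the WSR mean in 7 and below every WSR array in 6. The set differences ran from -0.84 to -0.04, and no female WSP array was in such a set. Only the sets of Male WSP Air 1-1 and Male WSP EtOH 1-2 matched the lines in sex and treatment, at -0.06 and -0.84. The others also held female WSR arrays and WSR arrays of the other treatment. These set differences were computed for the called spot only, on the same arrays, and are no separate test.

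**Figure D2:**
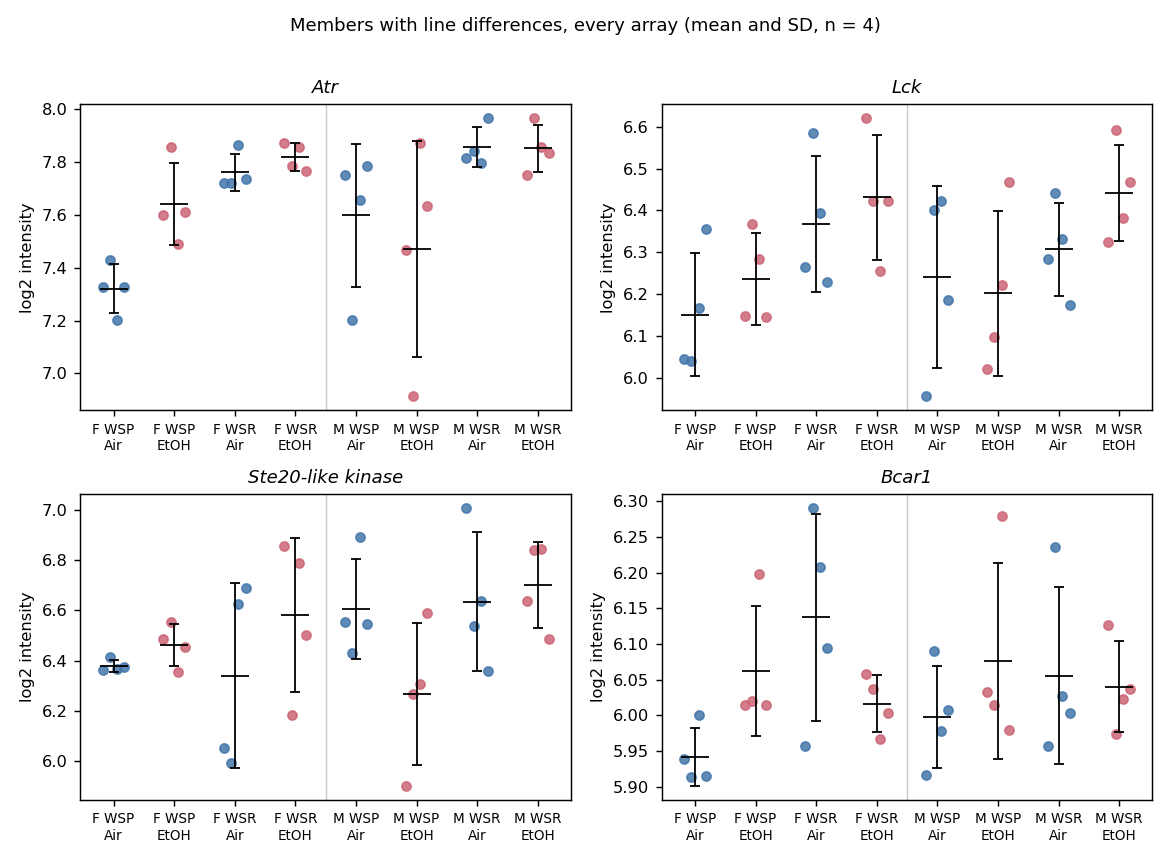
Points are single arrays (blue air, red EtOH) in the 8 groups for 4 spots named in the line comparisons, on the log2 intensity axis, with the group mean and SD over 4 arrays in black. For Atr, WSR arrays sit between 7.72 and 7.97 and all female WSP air arrays lie at or below 7.43.

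The other members of the line comparison were closer to the spread between arrays. Lck, a Src family tyrosine kinase best known from T cells, ran from 5.96 to 6.47 in WSP (median 6.18) and from 6.17 to 6.62 in WSR (median 6.39). Its difference of -0.18 (SE 0.06, 13 of 16 WSP arrays below the WSR mean) did not pass (limma adjusted p = 0.308), and it was -0.31 in selection replicate 1 alone and -0.05 in selection replicate 2 alone. Further members named by their p were higher or lower by smaller amounts. Among them, the lipid-signalling enzyme Enpp2 stood at 0.11 (SE 0.06) and Impa1, the lithium-sensitive inositol monophosphatase, at 0.17 (SE 0.12). Bckdk, which inhibits branched-chain amino acid breakdown, stood at 0.15 (SE 0.09), the elongation factor kinase Eef2k at 0.14 (SE 0.09) and the cyclin-dependent kinase relative Cdk16 at 0.07 (SE 0.05). Single female WSP arrays carried part of these values. Impa1 stood at 0.09 without Air 2-2, Eef2k at 0.08 without Air 1-1, Cdk16 at 0.03 without Air 1-2 and Bckdk at 0.10 without EtOH 2-2. On the lower side stood serum/glucocorticoid regulated kinase-like at -0.18 (SE 0.11), the gluconeogenic enzyme Pck1 at -0.08 (SE 0.04) and muscle creatine kinase Ckm at -0.07 (SE 0.04). Counted by unadjusted p under 0.05, 2 of the 87 were past it, 2.30%, both lower in WSP, against 7.18% of all clone spots. The median difference was -0.01 over the 87 spots and 0.00 over all clone spots, with 40 of the 87 means higher and 47 lower.

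By role, the line difference was spread over both directions. Of 23 cell cycle and other serine/threonine kinases, 10 had a higher mean in WSP and 13 a lower one (median 0.00), and Atr was the 1 called. MAP kinase cascade spots were 6 higher and 5 lower of 11 (median 0.00), tyrosine kinases 4 and 2 of 6, and second messenger kinases 5 and 1 of 6 (median 0.03). Metabolic enzymes were 4 higher and 9 lower of 13 (median -0.04), anchors, inhibitors and substrates 5 and 8 of 13 (median -0.02), tyrosine phosphatases 1 and 6 of 7 (median -0.01), and lipid and inositol enzymes 3 and 2 of 5 (median 0.06). Both serine/threonine phosphatases, calcineurin's catalytic subunit Ppp3cc and Ppm1b, were within 0.08 log2 units of no difference. No spot outside the cell cycle and other kinases passed.

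In air, the line comparison called 0 of the 87 spots and 0% of all, and 4 of the 87 had an unadjusted p under 0.05, 4.60%, against 5.37% of all clone spots. Beside Atr these were Bcar1, the docking protein p130Cas of focal adhesions, Akap10, which anchors protein kinase A, and Rps6ka4, the nuclear kinase MSK2, at 0.09 (SE 0.04). Bcar1 ran from 5.91 to 6.09 in WSP and from 5.96 to 6.29 in WSR, a difference of -0.13 (SE 0.06), with 8 of 8 WSP arrays below the WSR mean. Akap10 stood at 0.08 (SE 0.04), 5 of 8 arrays. Neither Bcar1 nor Akap10 passed (limma adjusted p = 0.834 each).

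In air females, 4 of 4696 clone spots were called, 0.0852%, and 0 of the 87. Unadjusted p was under 0.05 for 7 of the 87, 8.05%, against 10.4% of all. Rps6ka2, the ribosomal S6 kinase RSK3 downstream of MAP kinase, was below background on all 4 female WSP air arrays, at 5.76, 5.81, 5.88 and 5.76, and read 5.96, 5.95, 5.91 and 6.12 in female WSR air, at least 1.05-fold higher (limma adjusted p = 0.417). The Tousled-like kinase, a regulator of chromatin assembly, stood at 0.17 (SE 0.06) in females and Bcar1 at -0.20 (SE 0.09), with adjusted p of 0.318 and 0.432. In air males the counts were 0 called, 1 of the 87 with an unadjusted p under 0.05, and 2.07% of all. That 1 was Akap10 at 0.12 (SE 0.05).

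After EtOH, 0 of the 87 spots and 0% of all were called between lines, and 3 of the 87 had an unadjusted p under 0.05, 3.45%, all lower in WSP, against 4.94% of all. They were Atr, Lck at -0.22 (SE 0.08, 7 of 8 WSP arrays) and the spot titled Ste20-like kinase. RefSeq lists that spot's accession under a gene of another name, so its identity is uncertain and it is called by its title only. Ste20-like kinase ran from 5.90 to 6.59 in WSP (median 6.40) and from 6.18 to 6.86 in WSR (median 6.71), a difference of -0.28 (SE 0.12) with 8 of 8 WSP arrays below the WSR mean and an adjusted p = 0.881 (limma). In females the line comparison after EtOH called 1 of 4696 spots, 0.0213%, and 0 of the 87, and the unadjusted p was under 0.05 for 4 of the 87, 4.60%, against 8.56%. The adaptor Nck2 was 5.81, 5.89, 5.80 and 5.85 in female WSP EtOH and 5.95, 6.15, 6.35 and 6.51 in female WSR EtOH, which do not overlap, a difference of -0.40 (SE 0.17, limma adjusted p = 0.512). Pank1, the first enzyme of coenzyme A synthesis, stood at 0.18 (SE 0.06, adjusted p = 0.372), and at 0.09 without Female WSP EtOH 2-2. In males it was 0 called, 2 of the 87 with an unadjusted p under 0.05 (Atr and the spot titled Ste20-like kinase, the latter at -0.43, SE 0.17), 2.30%, and 5.81% of all.

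**Figure D3:**
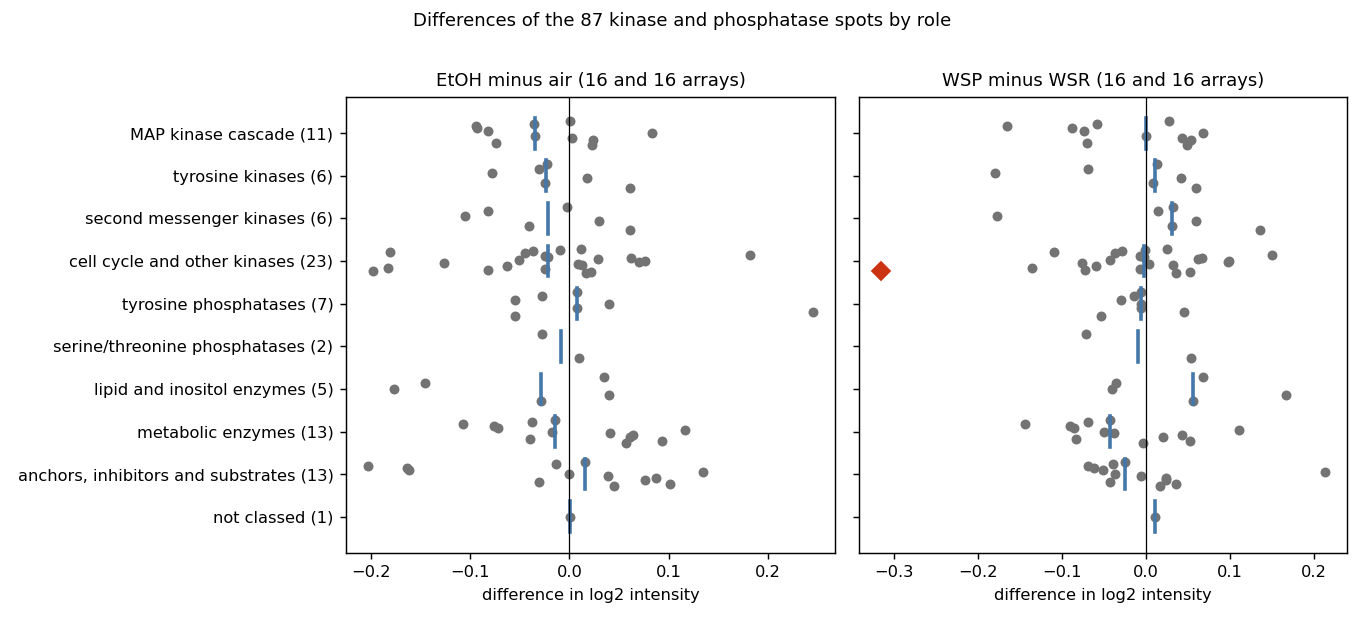
Each point is 1 of the 87 spots, placed by its difference in log2 intensity, EtOH minus air on the left and WSP minus WSR on the right, in rows by role with the number of spots in brackets. Blue bars are the medians of a role and the red diamond is the only called spot, Atr at -0.315. Vertical scatter within a row has no meaning.

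The EtOH comparison asks which transcripts differ 8 h into withdrawal. Averaged over sexes and lines, none of the 87 spots passed (0 called, 0% of all clone spots, limma adjusted p from 0.656). Unadjusted p was under 0.05 for 6, or 6.90%, 2 higher and 4 lower in EtOH, against 7.52% of all clone spots. Their median difference was -0.01, with 40 means higher and 47 lower, against a median of 0.00 over all. The 2 higher ones were Clk4, a kinase of SR splicing factors, and Styx, a catalytically inactive relative of tyrosine phosphatases that binds phosphorylated proteins. The 4 lower ones were Nck2, Prkag1, Csnk1a1 and Btk, the last at -0.08 (SE 0.03).

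Clk4 was above background on 15 of 16 EtOH and 8 of 16 air arrays. Female WSP arrays read 5.84, 5.82, 5.77 and 5.87 in air and 6.05, 6.16, 5.99 and 5.99 in EtOH, and male WSP arrays 5.94, 5.72, 5.94 and 5.86 in air and 6.11, 5.99, 6.03 and 6.37 in EtOH. All 8 WSP EtOH arrays were above all 8 WSP air arrays, from 5.99 up against 5.94 down. Female WSR arrays read 6.02, 6.05, 5.84 and 5.85 in air and 6.06, 6.39, 5.97 and 6.24 in EtOH, and male WSR arrays 5.86, 5.80, 6.17 and 5.88 in air and 5.90, 6.09, 5.91 and 5.87 in EtOH. WSR groups overlapped in both sexes. The difference was 0.24 in WSP (SE 0.07, limma adjusted p = 0.632) and 0.12 in WSR (SE 0.07, adjusted p = 1.00), and the difference between these 2 was 0.12 (SE 0.10, 95% interval -0.08 to 0.33, adjusted p = 0.999). The average over both was 0.18 (SE 0.05, 15 of 16 EtOH arrays above the air mean), 0.21 within selection replicate 1 alone and 0.15 within selection replicate 2 alone.

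In female WSP mice Clk4 was below background on all 4 air arrays, which makes it at least 1.10-fold higher in EtOH. Its differences by group were 0.22 in female WSP, 0.23 in female WSR and 0.26 in male WSP (SE 0.10 each), and 0.01 in male WSR. None passed.

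Styx was below background on all 8 WSP air arrays and above it on 6 of 8 WSP EtOH arrays, at least 1.15-fold higher in EtOH (limma difference 0.32, SE 0.11, adjusted p = 0.632). EtOH arrays read 6.58, 5.78, 5.96 and 5.98 in female WSP and 6.43, 6.08, 5.87 and 5.96 in male WSP, against 5.66 to 5.84 on the 8 air arrays. In WSR, EtOH arrays read 6.54, 5.79, 5.77 and 5.73 in females and 5.94, 6.42, 5.77 and 5.73 in males, so each group had 1 array far above the rest. All 4 arrays over 6.4 were from selection replicate 1. The average difference of 0.24 (SE 0.08) was 0.43 in selection replicate 1 alone and 0.06 in selection replicate 2 alone.

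Nck2, an SH2 and SH3 adaptor that links tyrosine-phosphorylated receptors to the actin skeleton, ran from 5.80 to 6.52 on EtOH arrays (median 6.04) and from 5.86 to 6.94 on air arrays (median 6.31). Its difference was -0.20 (SE 0.09, 13 of 16 EtOH arrays below the air mean). Prkag1, the AMP-sensing subunit of AMP-activated kinase, was above background on 6 of 16 EtOH and 16 of 16 air arrays, with a difference of -0.20 (SE 0.10, 14 of 16). Of its EtOH arrays, Female WSP EtOH 2-1 at 6.76 and Male WSR EtOH 2-1 at 6.53 stood above the others, all at 6.16 or lower. Within selection replicate 1 alone Prkag1 differed by -0.33, and within selection replicate 2 alone by -0.06.

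Csnk1a1, casein kinase 1 alpha, which primes beta-catenin for degradation, and Cdkn1c, the cyclin-dependent kinase inhibitor p57, took their differences from the same 3 air arrays. Csnk1a1 read 6.66 on Female WSR Air 1-2, 6.66 on Male WSP Air 1-2 and 6.62 on Male WSR Air 1-2, and at most 6.07 on every other air array. Cdkn1c read 6.57, 6.59 and 6.60 on these 3 and at most 6.16 on every other air array. The 3 arrays fall into 1 of the sets defined by the genomic DNA control spots, which holds 5 arrays, 4 of them air. The other 2 arrays of that set were not high, at 5.84 for both spots on Female WSR Air 1-1 and at 5.79 for Csnk1a1 and 5.71 for Cdkn1c on Female WSR EtOH 1-2. The average difference of Csnk1a1 was -0.18 (SE 0.09), and -0.12 with sets as a random block. That of Cdkn1c was -0.16 (SE 0.08), and -0.13 with the block. Within selection replicate 2 alone Csnk1a1 showed no difference at 7.9e-05 and Cdkn1c stood at -0.05.

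**Figure D4:**
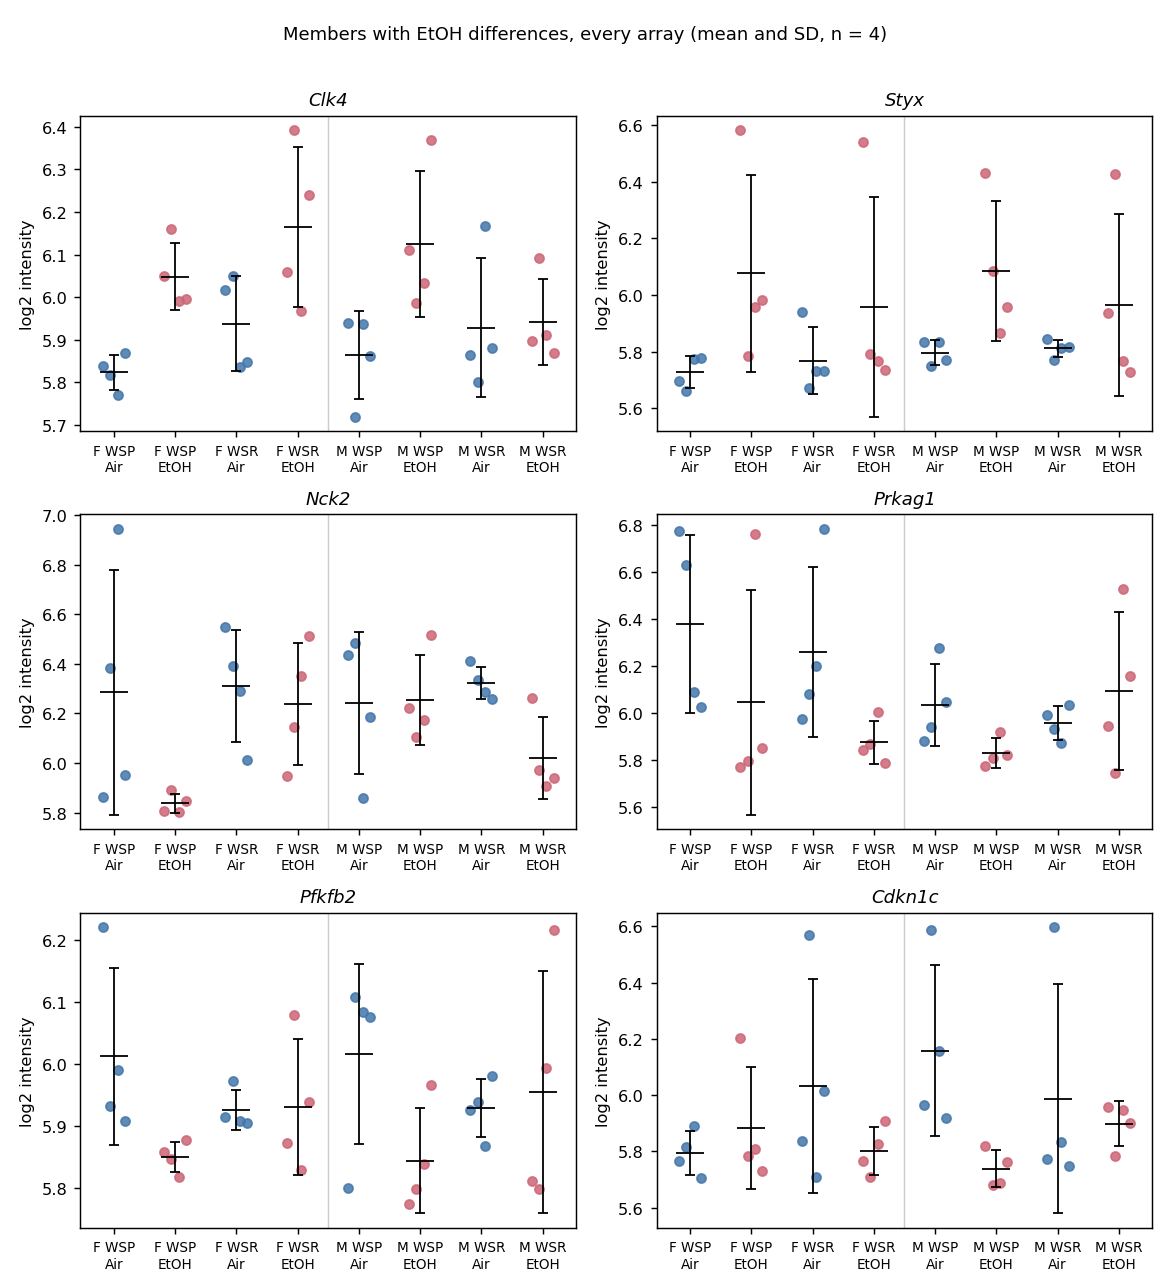
Points are single arrays (blue air, red EtOH) in the 8 groups for 6 spots named in the EtOH comparisons, on the log2 intensity axis, with the group mean and SD over 4 arrays in black. For Clk4 all WSP EtOH arrays lie above all WSP air arrays, and for Styx each EtOH group has 1 array above 6.4.

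By role, EtOH differences had no common direction. MAP kinase cascade spots were 5 higher and 6 lower of 11 (median -0.03). Tyrosine kinases were 2 higher and 4 lower of 6, and tyrosine phosphatases 4 and 3 of 7. Second messenger kinases were 2 and 4 of 6, with the nuclear kinase Camk4 at 0.03 (SE 0.06) and the atypical protein kinase C Prkcz at 0.00 (SE 0.03). Cell cycle and other kinases were 10 and 13 of 23 (median -0.02), metabolic enzymes 6 and 7 of 13, lipid and inositol enzymes 2 and 3 of 5, and anchors, inhibitors and substrates 7 and 6 of 13 (median 0.02). The 2 clones of the nuclear kinase Hipk1 stood at -0.06 (SE 0.09) and 0.01 (SE 0.05). Among the markers, the neuronal Thy1 stood at 0.11 (SE 0.05) and the astrocyte receptor Fgfr3 at 0.24 (SE 0.11) in the same comparison. The other neuronal and astrocyte markers, Ina and Glul, had higher EtOH means in female WSP, female WSR and male WSP, and lower ones in male WSR. In male WSR, Ina had a mean of 6.43 in air and 6.15 in EtOH, and Glul 9.12 and 8.60. Neither marker thus moved in the same direction in all groups. The part of these markers in the members' values was not tested.

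Within WSP, averaged over sexes, 0 of the 87 spots were called (0% of all) and 4 had an unadjusted p under 0.05, 4.60%, against 7.67% of all clone spots. Beside Clk4 and Styx these were Pfkfb2, which sets the level of the glycolysis activator fructose-2,6-bisphosphate, and Pdxk, which makes the cofactor pyridoxal phosphate. Pfkfb2 ran from 5.77 to 5.97 in EtOH (median 5.84) and from 5.80 to 6.22 in air (median 6.03), with 8 of 8 EtOH arrays below the air mean and a difference of -0.17 (SE 0.06). Pdxk ran from 5.94 to 6.36 in EtOH (median 6.13) and from 5.80 to 6.21 in air (median 5.93), a difference of 0.16 (SE 0.08).

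Within WSR, 0 were called (0%) and 1 of the 87 had an unadjusted p under 0.05, 1.15%, against 1.72% of all. It was Btk, a Tec kinase of B cells and myeloid cells, below background on all 8 WSR EtOH arrays and above it on 4 of 8 air arrays, at 5.66 to 5.79 against 5.74 to 5.94. All 8 EtOH arrays lay below the air mean, a difference of -0.12 (SE 0.04, limma adjusted p = 1.00). Chkb, which phosphorylates choline for membrane lipids, stood at -0.21 (SE 0.10, 7 of 8) and Map3k1, the MAP kinase kinase kinase MEKK1, at -0.18 (SE 0.10, 7 of 8). Chkb stood at -0.12 without Male WSR Air 1-1, which read 6.84, and Map3k1 at -0.36 in selection replicate 1 alone and -0.01 in selection replicate 2 alone.

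The difference of the EtOH differences between lines called 0 of the 87 (0% of all). Unadjusted p was under 0.05 for 2, 2.30%, against 2.09%: Pfkfb2 at -0.18 (SE 0.09) and Akap10 at -0.11 (SE 0.05), with limma adjusted p = 0.999 each. Pfkfb2 stood at -0.17 in WSP and 0.01 in WSR. Srpk3 stood at -0.30 (SE 0.15) and Pnck at -0.34 (SE 0.26) in the same test, and Pnck at -0.09 without Female WSP EtOH 1-2.

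**Figure D5:**
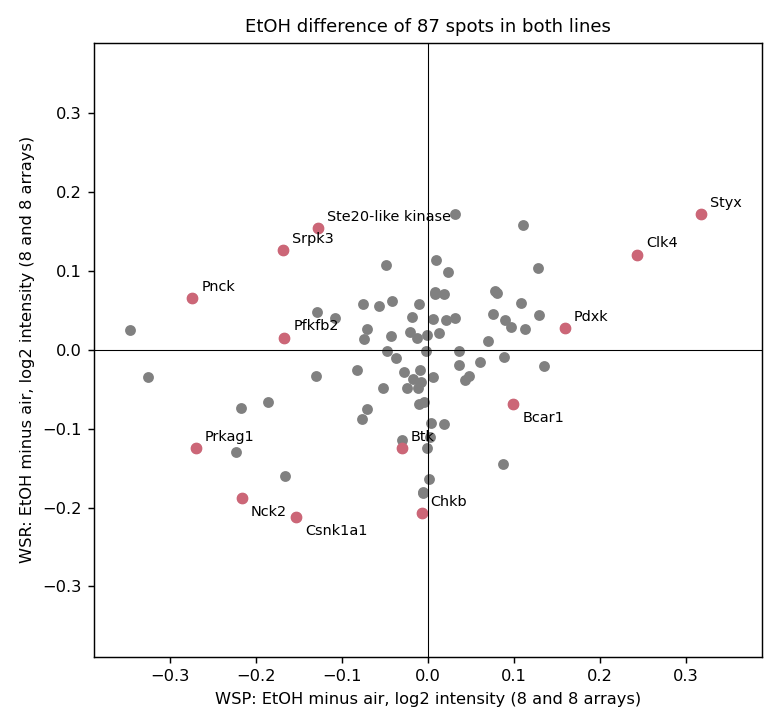
Each point is 1 of the 87 spots, with its EtOH minus air difference in WSP on the horizontal axis and in WSR on the vertical axis, in log2 intensity, from 8 against 8 arrays in each line. Clk4 and Styx lie at the upper right at 0.24 and 0.32 in WSP, Nck2 and Prkag1 at the lower left, and Pnck and Srpk3 at the left above zero.

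Within single groups of 4 against 4 arrays, no member passed in any of the 4 EtOH comparisons (0 of 87, and 0% of all clone spots in each). In female WSP, the unadjusted p was below 0.05 for 8 of the 87 spots (9.20%, 5 of them higher in EtOH and 3 lower), against 11.6%. Beside Clk4, Prkcq, a protein kinase C of T cells, read 5.89, 5.96, 5.88 and 5.84 in air and 6.02, 6.19, 6.03 and 5.97 in EtOH, which do not overlap, a difference of 0.16 (SE 0.06, limma adjusted p = 0.345). Atr was 0.32 higher in EtOH there (SE 0.14, adjusted p = 0.385), again without overlap, but 0.18 higher under median scaling and 0.02 under cyclic loess, and -0.13 in male WSP. Nck2 read 5.86, 6.38, 6.94 and 5.95 in air and at most 5.89 in EtOH, a difference of -0.45 (SE 0.17, adjusted p = 0.320) that was -0.23 without Air 2-1. Eef2k, the calcium-dependent kinase that slows translation elongation, stood at -0.40 (SE 0.18) through air arrays 1-1 at 7.01 and 2-1 at 6.45, and at -0.17 without the first of these. Pnck stood at -0.58 (SE 0.26) through a single EtOH array, 1-2 at 8.998 beside 11.06, 11.15 and 10.88, and at -0.07 without it.

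In female WSR, 1 of the 87 had an unadjusted p under 0.05, 1.15%, against 3.0% of all, and it was Clk4. Prkag1 stood at -0.39 (SE 0.19), Csnk1a1 at -0.31 (SE 0.17) and below background on all 4 EtOH arrays, and Map4k1, the kinase HPK1 at the head of a MAP kinase cascade, at -0.24 (SE 0.13). Rps6kb2, the S6 kinase downstream of mTOR, stood at 0.29 (SE 0.16) and Pck1 at 0.16 (SE 0.09). Without 1 air array, Prkag1 stood at -0.21 (without 2-2), Map4k1 at -0.16 (without 2-2), Csnk1a1 at -0.11 (without 1-2) and Rps6kb2 at 0.19 (without 1-1). Rps6kb2 stood at 0.47 without EtOH 1-2, at 0.19 without EtOH 2-2 and at 0.17 with sets as a random block.

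In male WSP, 4 of the 87 had an unadjusted p under 0.05, 4.60%, against 6.15%. Cdkn1c read 5.97, 6.59, 6.16 and 5.92 in air and 5.82, 5.68, 5.69 and 5.76 in EtOH, which do not overlap, a difference of -0.42 (SE 0.16, limma adjusted p = 0.751) that was -0.28 without Air 1-2. Akap10 was below background on all 4 EtOH arrays, at 5.76, 5.78, 5.75 and 5.78 against 5.99, 5.78, 5.95 and 5.92 in air, at least 1.03-fold lower. Mapk10, the neuronal kinase JNK3, stood at 0.23 (SE 0.11) through EtOH array 1-2 at 6.54 and at 0.06 without it, and Clk4 at 0.26 without overlap. Styx, below background on all 4 air arrays, was at least 1.18-fold higher in EtOH.

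In male WSR, 3 of the 87 had an unadjusted p under 0.05, 3.45%, all lower in EtOH, against 3.39% of all clone spots. These were Btk, Inpp5d and Csk, at a share near that of all clone spots. Btk read 5.79, 5.94, 5.83 and 5.89 in air and 5.70, 5.67, 5.66 and 5.68 in EtOH, which do not overlap, at least 1.01-fold lower (limma difference -0.19, SE 0.06, adjusted p = 1.00). Inpp5d, the lipid phosphatase SHIP1 of blood cells and microglia, read 6.31, 6.33, 5.95 and 6.52 in air and 5.81, 6.10, 5.96 and 5.81 in EtOH, a difference of -0.36 (SE 0.14). Csk, which restrains Src family kinases, stood at -0.25 (SE 0.10), with Air 2-2 at 6.43 above the rest, and at -0.11 without it. With sets as a random block, Inpp5d stood at -0.21 and Csk at -0.15. The 3 microglia markers had a summed log2 level of 17.9 to 18.2 on male WSR air arrays and 17.3 to 18.2 on male WSR EtOH arrays, and their part was not tested. The 2 astrocyte markers went opposite ways in this comparison. Glul stood at -0.52 (SE 0.16), while Fgfr3 had a mean of 5.82 in air and 5.98 in EtOH.

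Single high values were concentrated in the female WSP air group. A value more than 1 log2 unit above the spot's own median over 32 arrays occurred 13 times among the 87 spots, and 7 of these were in that group, on all 4 of its arrays. They were Cdkn1a, the p53-induced cell cycle inhibitor p21, at 8.38 on 2-1 (median 5.79), Cdk18 at 8.17 on 1-2 (median 5.90), the diacylglycerol kinase Dgka at 7.57 on 1-1, Impa1 at 7.38 on 2-2, Mapkapk2, a stress kinase target of p38, at 7.22 on 2-1, Ppp3cc at 7.06 on 2-1 and Eef2k at 7.01 on 1-1. Each gene passed that bound on 1 array, and these genes were chosen after their values were seen. Over all clone spots the same group held 273 such values, against 54 to 134 in each other group, so the pattern was not limited to kinases and phosphatases. The female WSP air group also held the highest of 32 values for 24 of the 87 spots, 27.6%, and for 23.3% of all clone spots.

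The 33 clone spots of signalling partners that are no members, such as cyclins, calmodulin, G proteins and small GTPases, give the setting of these enzymes. For the average EtOH comparison 19 had a higher and 14 a lower mean (median 0.02), 3 had an unadjusted p under 0.05, 9.09%, against 7.52% of all clone spots, and 0 were called. Calmodulin, the calcium sensor that activates the calmodulin-dependent kinases, stood at 0.25 (SE 0.09) and cyclin G2, an inhibitory cyclin, at 0.18 (SE 0.07). For the average line comparison 25 had a higher and 8 a lower mean in WSP (median 0.03, against 0.00 over all clone spots). Unadjusted p was under 0.05 for 5, 15.2%, all higher, against 7.18% of all clone spots. How those split by direction is not given here, and 0 partners were called. The G protein alpha 11 stood at 0.23 (SE 0.07) and the calcineurin-interacting protein at 0.12 (SE 0.05).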

How the data were processed

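Radiolabelled cDNA was hybridised to 32 spotted cDNA arrays. Per the file headers, each file lists an intensity per spot (Signal) beside 1 background intensity, with nothing subtracted by the authors. The authors' deposited value table holds log2 values, with a rank correlation of 1 with Signal and blanks below background (10.9% to 47.3% per array, medians 7.39 to 8.58). Its direction is that of Signal, while its centring and scaling stay unknown, and it served as an alternative.

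Signals were corrected with normexp (offset 50, all 5355 spots), 4696 clone spots were kept, without 192 genomic DNA and 467 unidentified spots, and these were quantile normalised on the log2 scale. limma 3.58.1 in R 4.3.3 fitted 8 group means over 32 arrays (lmFit, eBayes with trend, 24 residual and 5.60 prior degrees of freedom), with 15 contrasts, 2-sided, selection replicates collapsed as the series' design text states. A spot below background on every array of a group has only a bound there ("at least N-fold", from normalised means). This bound allows for the background level and not for the spread between arrays. The number of arrays limits the precision. The labels call the 4 arrays of a group biological replicates, and p-values measure the spread between these arrays.

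Members and lists were chosen with earlier results of these data known. Named members are those past the threshold, else the 5 per direction with the smallest p in averages and the 3 in single groups, if above background on 4 of 8 arrays, or that share, of the brighter side, plus the 10 with the highest mean level and examples per role. Rps6ka4 in air, Btk in the average EtOH comparison, and the named partners were chosen after their values were seen. Air and EtOH arrays of 1 selection replicate number come from the same population, as the labels give it, and are paired by it. Their deviations from group means correlated at -0.08 (WSP) and 0.21 (WSR) in females and at -0.02 (WSP) and -0.003 (WSR) in males. Results for some members and other genes are not reported here. Clone sequences were not used here, so cross-hybridisation between related kinases was not tested. Plots used Python 3.11.15 and matplotlib 3.10.9.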

Additional observations from a re-analysis of the deposited data

Results flagged for a closer look

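Among 42 named members in 8 groups of 4 arrays, 336 groups of values were checked for 1 array far from the other 3 by Dixon's gap criterion at 95%. Of these 27 had one, and chance gives about 1 in 20. All values are log2 intensities.

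Several stood high. Cdkn1c read 6.20 on Female WSP EtOH 1-1 and 6.60 on Male WSR Air 1-2, where Csnk1a1 read 6.62. Prkag1 read 6.76 and Bcar1 6.20 on Female WSP EtOH 2-1. Styx read 6.54 and Tousled-like kinase 5.92 on Female WSR EtOH 1-1. On Female WSR Air 1-2, Pfkfb2 read 5.97 and Tousled-like kinase 5.91. On Female WSR Air 2-1, Atr read 7.87 and Txk 6.48. Csk read 6.27 on Female WSR EtOH 2-1, Cdk16 read 6.29 on Female WSP Air 1-2, and Ptprk read 6.04 on Male WSR Air 2-2. Dok2 read 6.06 on Male WSP EtOH 1-2 and Txk 6.27 on Male WSR EtOH 2-2. Bckdk stood high on pool 2-2 of 3 EtOH groups, at 6.71 in female WSP, 6.02 in female WSR and 6.02 in male WSP.

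Others stood low. On Female WSP Air 1-1, Pnck read 10.60 and Cks1b 8.52. Pnck read 8.998 on Female WSP EtOH 1-2, serum/glucocorticoid regulated kinase-like 7.51 on Female WSP EtOH 2-2 and Akap10 5.76 on Female WSP EtOH 1-1. Cks1b read 9.33 on Male WSR Air 2-2, Pfkfb2 5.80 on Male WSP Air 1-1 and Dok2 5.78 on Female WSR Air 1-1.

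For 4 members every EtOH array of one group lay above, and every EtOH array of another below, the mean of its own air group. The difference between the 2 groups' EtOH effects was not tested within a line or within a sex. Each group's own EtOH difference, given here, was tested with limma, and none passed. Averaged over sexes, the difference of the EtOH differences between lines was tested and did not pass, at -0.11 for Akap10 and 0.17 for Bcar1 (limma adjusted p = 0.999 each). In WSP, Pck1 stood at 0.15 in females and -0.13 in males. In WSR, Csk stood at 0.15 in females and -0.25 in males. In females, Bcar1 stood at 0.12 in WSP and -0.12 in WSR. In males, Akap10 stood at -0.14 in WSP and 0.05 in WSR.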

How the results depend on the processing

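Of the 114 named differences, every one kept its sign and its side of the threshold without background correction, with an offset of 16 and without the trend. The same held with the replicate block and with the sets defined by the genomic DNA control spots as a random block. The labels name no batch. The replicate block, which uses the selection replicate number, left the Atr line difference at -0.315 with a limma adjusted p = 0.0265 and changed no call. The Atr call was lost, with 0 members called, under median scaling, under cyclic loess and within either selection replicate alone, where 16 of 32 arrays enter. The authors' deposited values called 4 members in that comparison, among them Atr at -0.71, where blanks leave fewer spots. In the EtOH comparison of female WSP, 4 members were called with the authors' deposited values, 1 within selection replicate 1 alone (Prkag1, -0.92) and 1 within selection replicate 2 alone (Tesk1, -0.45), against 0 as reported. For the lines in air females these counts were 3, 1 and 1. The 3 were Cdk18, Cdkn1a and Ppp3cc, each over 1 log2 unit above its median on 1 female WSP air array. Cdk18 and Cdkn1a were also among the 4 called in female WSP. Shares of all clone spots called under these settings are not given here, so these counts cannot be set against the whole array. With each array left out in turn the count of called members was 1 to 1 for the average line comparison, 0 to 1 for the lines in EtOH females, where Pank1 was called at 0.26 without Female WSP EtOH 2-1, and 0 to 0 in the other 13 comparisons. Over all clone spots the left-out arrays moved the calls from 19 to 42 for the average line comparison, 0 to 24 for air females, 0 to 18 for EtOH in female WSP and 0 to 11 for the lines in EtOH females.

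Signs turned in 4 cases, none of them a call. Within selection replicate 2 alone, Csnk1a1 stood at 7.9e-05 for the average EtOH comparison and at 0.0284 in WSR. Within selection replicate 1 alone Txk stood at -0.0629 for the lines in air males. With the authors' deposited values Styx stood at -0.57 for the lines in EtOH. The causes were not tested. Those values moved the median of all clone spots by up to 0.11, in the line comparison of EtOH males. Signal over background limits the dim members, 36 of 87 being above background on fewer than 16 arrays, and differences there are compressed towards 0.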
